A study of Arabidopsis thaliana with 13 samples.

Results

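Among the 22746 non-control probe sets of 13 ATH1 arrays of Arabidopsis siliques, 94 had lower signals in 2 crosses than in the balanced cross 2xX2x. These crosses were 2xX6x, with a hexaploid father, and fis1X2x, with a mother mutant in the Polycomb gene FIS1. The 94 probe sets were chosen by the signals themselves. After signals under 20 had been raised to 20, the highest of the 4 arrays of 2xX6x and fis1X2x had to be at most 0.5 of the lowest of the 2 arrays of 2xX2x. The rule was met by 102 probe sets, and 8 genes with 1 probe set each were left out by name (AT5G38160, AT5G38170, AT5G38180, AT1G71250, GH9C1, PDF2.1, LCR69 and SBTI1.1). Values in 2xX6x, fis1X2x and 2xX2x therefore only describe the choice. Tests were kept to contrasts between crosses that the rule did not use, although their spread was estimated with the arrays of the rule included.

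In the name of a cross the mother is given before the father, each with its ploidy. Paternal excess is represented by 2xX4x (C24 mother and tetraploid C24 father) and 2xX6x (C24 mother and hexaploid Col-1 father), and fis1X2x had a homozygous fis1-3 mother of accession Ler and a diploid C24 father. Maternal excess is represented by 4xX2x (tetraploid C24 mother and diploid C24 father) and 6xX2x (hexaploid Col-1 mother and diploid C24 father). The msi1 array held unfertilised siliques of the msi1-2 mutant in C24, harvested 7 days after flowering, and the balanced cross 2xX2x had C24 as both parents. The C24 mothers and the msi1 plants carried the A9-barnase transgene, which makes a plant male sterile, whereas the 6xX2x mother carried none. The siliques of all crosses were taken 5 days after pollination. Each cross had 2 biological replicates, pooled from several plants, and msi1 had 1 array. According to the study's methods the msi1 siliques came from male-sterile F1 plants, so that wild-type ovules may have contributed RNA. Accession and cross cannot be told apart in 2xX6x, fis1X2x and 6xX2x.

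In Arabidopsis, the endosperm receives more maternal than paternal genomes, and a change in this balance alters how long its nuclei divide before cell walls form. Extra paternal genomes prolong the free-nuclear phase, whereas extra maternal genomes bring cell walls forward. FIS1, also called MEDEA, and MSI1 belong to a Polycomb complex that represses genes in the central cell and endosperm by histone methylation, and its loss gives overgrown endosperm that remains without walls. At about the heart stage the embryo and the cellularizing endosperm form many new cell walls, a process that depends on the cell plate, a membrane compartment built between daughter nuclei. Because RNA came from whole siliques, fewer cells of a type and less RNA per cell cannot be told apart.

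The arrays had been scaled to a common trimmed mean, and their medians ranged from 38 to 46.4. The 6xX2x replicate 1 array stood apart in its ratio of 3′ to 5′ signal, a sign of RNA quality, with 28.5 for actin and 6.93 for GAPDH, against ranges of 2.81 to 17 and 1.2 to 2.84 on the other 12 arrays. For 6xX2x, the counts of called and of lowered members and the median log2 changes are given without it as well. The class combinations, the counts at or above 2xX2x, the sums over gene lists and the msi1 counts that use it are given with it only. All 94 members passed the filter on dim probe sets, each of them through both 2xX2x arrays.

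The members were of moderate signal in the balanced cross and near the bottom of the scale in the 2 crosses that chose them. Over the 94 probe sets the median of the mean signal was 30.6 in 2xX6x and 24.2 in fis1X2x, against 132.5 in 2xX2x. In the crosses outside the rule it was 86.0 in 2xX4x, 65.8 in 4xX2x, 49.2 in 6xX2x and 19.8 in msi1. The 2xX4x arrays were thus the nearest to 2xX2x, and the msi1 array lay at the floor of the rule. Signals under 20 were found on both fis1X2x arrays for 29 members and on both 2xX6x arrays for 20 members. The deposited table holds no detection calls, so no order is read among such low signals.

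**Figure D1:**
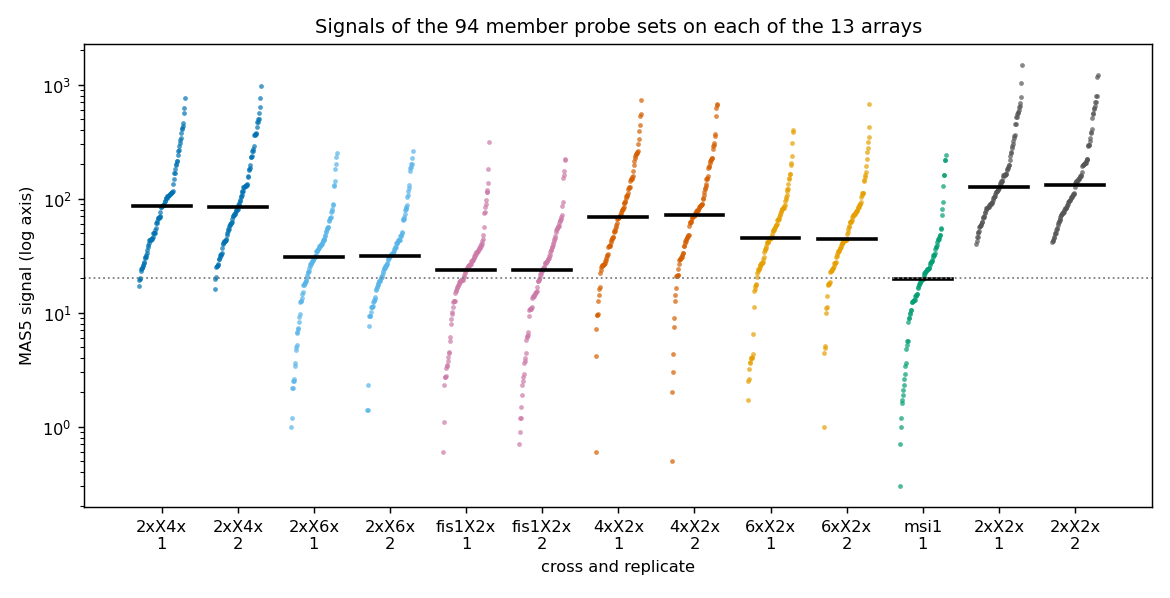
MAS5 signals (log axis) of the 94 probe sets on each of the 13 arrays, sorted within each array, with the median as a black bar and the floor of 20 of the rule as a dotted line. The medians lie at 85.7 and 85.2 on the 2xX4x arrays, at 68.5 and 72.1 on the 4xX2x arrays, at 45.1 and 43.9 on the 6xX2x arrays, at 19.8 on the msi1 array, and at 125.9 and 131.5 on the 2xX2x arrays.

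Of the 94 probe sets, 46 could be named to 1 gene, which gave 45 genes because AT5G50740 was represented by 2 probe sets. The other 48 had no gene or several in the annotation used here and were analysed without a name. The named loci lay on all 5 chromosomes, with 18 on chromosome 1, 9 on chromosome 2, 7 on chromosome 3, 4 on chromosome 4 and 7 on chromosome 5. No pair of named members lay next to each other or with 1 locus between them. Nearest inside the limit of the rule were AT1G32190, a putative hydrolase gene, with a ratio of 2.00 between the lowest 2xX2x array and the highest of the 4 arrays, and AT1G03440, a gene of the leucine-rich repeat family, with 2.01. The floor of 20 set the ratio of AT1G32190, which had 2.5 and 7.6 in 2xX6x and 7.9 and 6.7 in fis1X2x, against 40 and 64.8 in 2xX2x. Nearest outside it was the probe set 248668_at with 1.98, followed by AT1G26795 with 1.98.

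Named members with a role in dividing cells included the one with the highest signal in the balanced cross. SYP111, better known as KNOLLE, encodes the syntaxin that fuses vesicles at the cell plate. Its signals were 55.5 and 81.3 in 2xX6x and 42.9 and 57.3 in fis1X2x, against 698 and 709 in 2xX2x. In the crosses outside the rule it gave 202 and 237 in 2xX4x, 155 and 153 in 4xX2x and 150 and 171 in 6xX2x, and 22.1 in msi1. SYP111 was therefore below 0.5 of 2xX2x in every other group, and the 2xX4x arrays were above those of 4xX2x and 6xX2x, although neither difference passed the test (limma, adjusted p = 0.47 and 0.35).

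HIK (HINKEL), a kinesin needed for the cell plate to expand, was dimmer. Its signals were 50.5 and 60.9 in 2xX4x, 14.7 and 19.3 in 2xX6x, 30.4 and 22 in fis1X2x, 41.3 and 71.8 in 4xX2x, 44.8 and 36.6 in 6xX2x and 24.5 in msi1, against 91.5 and 74.6 in 2xX2x. CSLD5, a cellulose synthase-like enzyme of dividing cells, had 111 and 96.5 in 2xX4x, 72.7 and 88.9 in 4xX2x, 88.5 and 77.2 in 6xX2x and 39.6 in msi1, against 180.0 and 126 in 2xX2x. For both genes the arrays outside the rule lay between those of 2xX6x and 2xX2x, except the msi1 array of CSLD5. TOPII, the topoisomerase that untangles sister chromatids, had 115 and 106 in 2xX4x, 82.5 and 89.7 in 4xX2x and 46.2 and 72.2 in 6xX2x, against 163 and 113 in 2xX2x. The chromatin protein gene 3xHMG-box2, whose product binds mitotic chromosomes, had 118 and 156 in 2xX4x, 101.3 and 148.4 in 4xX2x and 85.6 and 76.9 in 6xX2x, against 166 and 153 in 2xX2x. In both of these genes 1 of the 2xX4x arrays lay within the range of 2xX2x, and the arrays of 4xX2x and 6xX2x lay below it.

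LEC1, a subunit of the transcription factor NF-Y that specifies embryo identity and starts the filling of the seed, was the member of the embryo list. It gave 28.3 and 51.5 in 2xX6x and 3.5 and 54.0 in fis1X2x, against 255 and 411 in 2xX2x. With a tetraploid father its signals of 213 and 288 overlapped those of 2xX2x, whereas they were 143 and 100.1 in 4xX2x, 44.4 and 71.8 in 6xX2x and 8.3 in msi1. Neither difference of 2xX4x from maternal excess passed the test (limma, adjusted p = 0.59 and 0.11). The related regulator LEC2 did not meet the rule because it was dim in the balanced cross, with 49.4 and 53.9 in 2xX4x, 2.5 and 13.5 in 2xX6x, 1.6 and 6.5 in fis1X2x and 5.7 in msi1, against 33.7 and 43.8 in 2xX2x.

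The named members with the widest ratio included several whose products are less well described. AT1G04380, of the 2-oxoglutarate-dependent oxygenase family, had 13.4 and 18.8 in 2xX6x and 16.7 and 15.3 in fis1X2x, against 192 and 223 in 2xX2x. It had 61.1 and 81.9 in 2xX4x, 90.9 and 102 in 4xX2x and 109 and 88.7 in 6xX2x. AT1G12080 had 106 and 127 in 2xX4x, 247 and 228 in 4xX2x, 151 and 162 in 6xX2x and 19.7 in msi1, against 356 and 340.2 in 2xX2x. In these 2 genes both 2xX4x arrays lay below those of maternal excess, but the differences did not pass the test (limma, adjusted p = 0.59 and 0.36 for AT1G04380 and 0.30 and 0.60 for AT1G12080). AT2G24580, related to sarcosine oxidases, was at 85.3 and 132 in 2xX4x and at 27.6 in msi1, against 165 and 139 in 2xX2x. AT3G02640 was at 61.0 and 79.5 in 2xX4x and 17.4 in msi1, against 161 and 158 in 2xX2x.

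**Figure D2:**
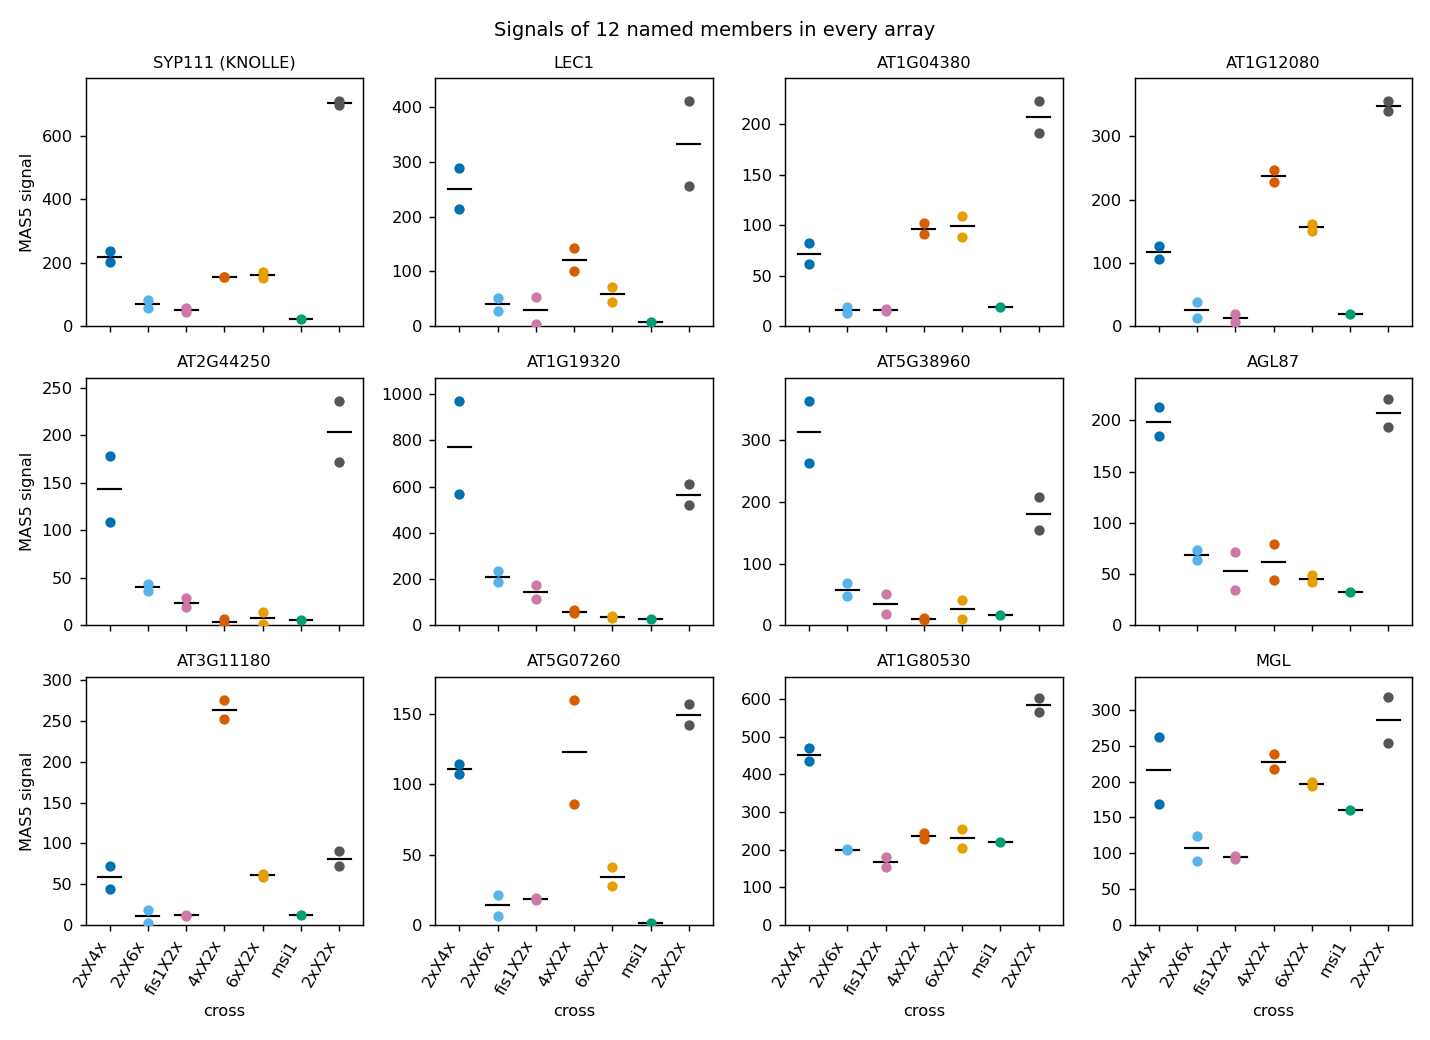
MAS5 signals (linear axes from 0, a scale of its own for each gene) of 12 named members, with 1 point per array and the mean of each cross as a bar. SYP111 is highest in 2xX2x and low elsewhere, AT1G19320, AT5G38960, AT2G44250 and AGL87 are high in 2xX4x and 2xX2x, and AT3G11180 is highest in 4xX2x.

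How far the members moved with a smaller paternal excess was described by the place of 2xX4x between 2xX6x and 2xX2x. Both 2xX4x arrays lay below both 2xX2x arrays for 70 members, against 15.9% of the 10992 probe sets whose 2xX2x arrays were both at 40 or more, the least signal a member can have there. Both lay above both 2xX6x arrays for 86 members (against 18.2%) and between the 2 crosses for 62 (against 2.58%). The median member stood at 0.707 of its lowest 2xX2x array in 2xX4x, against 1.13 over the 10992 probe sets. The members had to be high on the 2xX2x arrays and low on the 2xX6x arrays, so the rule itself favours this order. The shares over all probe sets carry no such choice, and the order is a description that was not tested. For 4 members both 2xX4x arrays were above both 2xX2x arrays (against 15.6%). Among them AT5G38960, of the germin-like family of secreted proteins, had 262 and 363 in 2xX4x, against 154 and 207 in 2xX2x, and AT2G21420, a putative zinc finger protein gene, had 116 and 129 in 2xX4x, against 90.6 and 55.6 in 2xX2x.

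Set against 2xX2x by the same limit of 0.5, the 4 groups outside the rule differed in how many members were this low. In 2xX4x both arrays were at most 0.5 of the lowest 2xX2x array for 10 members (10 of 94, against 0.164% of the 10992 probe sets), in 4xX2x for 24 (against 2.3%), in 6xX2x for 51 (against 2.36%) and in msi1 for 87 (against 7.05%). The median member stood at 0.6 of its lowest 2xX2x array in 4xX2x, at 0.437 in 6xX2x and at 0.242 in msi1. Over the 10992 probe sets these medians were 1.14, 1.09 and 1.08. At or above the lowest 2xX2x array were 8 members in 2xX4x (against 55.9% of the 10992 probe sets) and 9 in 4xX2x (against 48.3%). None of the 94 were so in 6xX2x (against 42.0%) or msi1 (against 57.0%). Because the 2xX2x arrays chose the members, some of this lowering follows from the choice and no test is given. Without 6xX2x replicate 1 the count in 6xX2x was 58. For 2xX4x, where the count is small, leaving out 2xX4x replicate 1 or 2 gave 18 or 23, and leaving out 2xX2x replicate 1 or 2 gave 17 or 19, since fewer arrays then had to meet the limit.

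**Figure D3:**
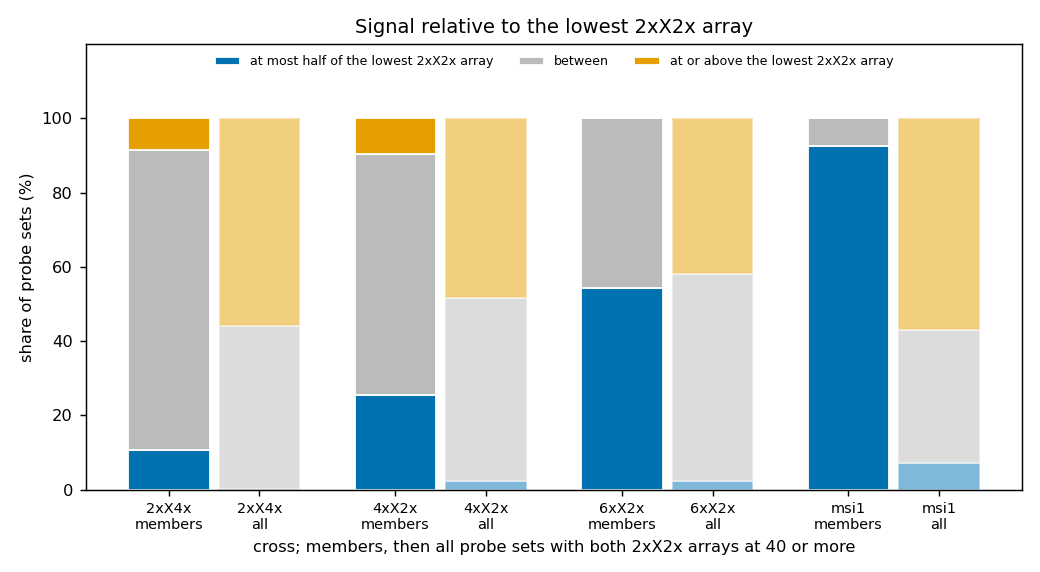
Share (%) of the 94 members, and beside it of all 10992 probe sets with both 2xX2x arrays at 40 or more, whose arrays in a group were at most 0.5 of the lowest 2xX2x array, between, or at or above it. The bottom segment of the members stands for 10 members in 2xX4x, 24 in 4xX2x, 51 in 6xX2x and 87 in msi1.

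The combinations of these classes were counted for the members alone, and their shares over all probe sets were not counted. Lowered stands here for arrays at most 0.5 of the lowest 2xX2x array and carries no test. Lowered to at most 0.5 in msi1 but in none of 2xX4x, 4xX2x and 6xX2x were 31 members, HIK, CSLD5, TOPII and 3xHMG-box2 among them. Lowered in both maternal excess crosses were 22 members, 20 of which were not so lowered in 2xX4x. Lowered in all 4 groups were 2 members, SYP111 and a probe set without a name. Lowered in 2xX4x but at or above the lowest 2xX2x array in 4xX2x were 3 members, of which AT5G12460, of a family of transmembrane proteins of unknown function, had 50.3 and 53.8 in 2xX4x and 123 and 191 in 4xX2x, against 144 and 109 in 2xX2x.

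The comparison of 2xX4x with 4xX2x sets the 2 directions of a milder imbalance against each other. Both crosses were within C24, and the rule used none of the 4 arrays. In 2xX4x, 14 members were higher (14.9% of 94, against 2.18% of the 15982 probe sets tested) and 4 were lower (4.26%, against 1.02%) at an adjusted p under 0.05 (limma, Benjamini-Hochberg over all probe sets tested). Here and in the other contrasts, the 15982 include probe sets under 40 in 2xX2x, unlike the members. With the 60th percentile filter 14 of 77 members were higher, against 266 of 11422 probe sets, and 2 were lower, against 133. The median log2 change of the members was 0.17, against 0.02 over all probe sets tested. Log2 changes here are of signal plus an offset of 7.4, which understates the change of dim probe sets.

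The 5 named genes with the widest changes were all higher in 2xX4x. AT5G38960 (germin-like) had 262 and 363 in 2xX4x, against 9.5 and 12.7 in 4xX2x, a log2 change of 4.10 ± 0.48 (adjusted p = 0.000648). AT2G44250, which encodes a protein with a domain of unknown function, had 109 and 179 in 2xX4x, against 7.2 and 0.5 in 4xX2x, a log2 change of 3.78 ± 0.45 (adjusted p = 0.000786). AT2G34890, a CTP synthase of pyrimidine nucleotide synthesis, had 107 and 157 in 2xX4x, against 4.2 and 3.0 in 4xX2x (log2 change 3.64 ± 0.54, adjusted p = 0.0033). In these 3 genes the 4xX2x signals were under the floor of the rule. AT1G19320, a thaumatin-like protein of the kind found among pathogenesis-related proteins, had 569.6 and 972 in 2xX4x, against 51.9 and 68.5 in 4xX2x. Its log2 change was 3.49 ± 0.31 (SE, 11.2-fold), with an adjusted p of 0.000118. AT2G21420 had 116 and 129 in 2xX4x, against 9.5 and 8.9 in 4xX2x, which are under the floor as well (log2 change 2.96 ± 0.48, adjusted p = 0.0059). The calls of AT5G38960, AT2G44250 and AT1G19320 kept an adjusted p under 0.05 in every alternative that was run.

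The other 5 named genes higher in 2xX4x had smaller changes. AT1G04645, of the S1 family named after self-incompatibility proteins of poppy, had 415 and 423 in 2xX4x, against 45.7 and 124 in 4xX2x (log2 change 2.35 ± 0.45, adjusted p = 0.0156). AT1G65240, an aspartyl protease gene, had 108 and 134 in 2xX4x, against 32.3 and 33.1 in 4xX2x (log2 change 1.67 ± 0.26, adjusted p = 0.00404). AT2G21130, a cyclophilin that assists protein folding, had 343 and 475 in 2xX4x, against 94.2 and 158 in 4xX2x (log2 change 1.67 ± 0.38, adjusted p = 0.0407). AGL87, a type I MADS-box gene, had 213 and 185 in 2xX4x, against 79.7 and 44.8 in 4xX2x (log2 change 1.61 ± 0.33, adjusted p = 0.0233). AT1G80530, a gene of the major facilitator transporters, differed least among the named genes, with 434 and 471 in 2xX4x, against 245 and 227 in 4xX2x (log2 change 0.92 ± 0.22, adjusted p = 0.0465). The calls of AT1G80530 and AT2G21130 were near the threshold and were lost in 13 and 8 of the 21 alternatives, with median centring among them (adjusted p = 0.0921 and 0.073). In all 10 named genes the arrays of the 2 crosses did not overlap. This held for every called member and adds nothing to the calls, and the share over all probe sets was not counted. The remaining 4 probe sets had no name here, among them 266386_at, with 764 and 759 in 2xX4x, against 37.8 and 21.3 in 4xX2x (log2 change 4.42 ± 0.31).

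The 4 members lower in 2xX4x were AT3G11180, AT5G12460 and the unnamed 250611_at and 256158_at. AT3G11180, an oxygenase gene whose product inactivates jasmonate, a defence hormone, had 43.8 and 72.4 in 2xX4x, against 253 and 276 in 4xX2x (log2 change -2.08 ± 0.40, adjusted p = 0.0157). The 4xX2x arrays were above the balanced cross and those of 2xX4x overlapped it, with 90.3 and 71.6 in 2xX2x. AT5G12460 fell by 1.44 ± 0.34 on the log2 scale (adjusted p = 0.0445), and 250611_at by 2.72 ± 0.52, with 30.8 and 78.2 in 2xX4x and 441 and 308 in 4xX2x. The call of AT5G12460 was lost in 13 of the 21 alternatives, among them no offset (adjusted p = 0.323), no filter (0.0844) and quantile normalization (0.0518), and that of AT3G11180 in 5, with no offset among them. The count of 18 called members rested on few arrays. It fell to 7 and 6 when 2xX4x replicate 1 or replicate 2 was left out, and to 10 and 11 when the same was done for 4xX2x replicate 1 or 2, the spread of a lone array being taken from the other crosses. Of the 12 named calls, the 9 other than those of AT1G19320, AT5G38960 and AT2G44250 were lost without 2xX4x replicate 2 (adjusted p from 0.0541 to 0.355), 7 of them also when 2xX4x replicate 1 was left out, and 5 and 4 when 4xX2x replicate 1 or 2 was left out. The seed storage and oil list moved with this contrast. Its 3 measured genes (OLEO3, OLEO5 and CRU2, none of them a member) summed to 136 to 154 in 2xX4x, against 998.5 to 2333 in 4xX2x. The balanced cross lay between, with 213.8 to 215.5 in 2xX2x. OLEO3 and OLEO5 passed the test and CRU2 did not (limma, adjusted p = 0.0562), and the part of this in the members' values was not tested.

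The same 2xX4x arrays were set against 6xX2x. In 2xX4x 21 members were higher (22.3%, against 2.77% of all probe sets tested), or 10 without 6xX2x replicate 1, and 0 were lower (against 1.65%) by limma, with 44 higher and 3 lower at an unadjusted p under 0.05. The median log2 change was 0.74, against 0.01 over all probe sets tested, and 70 of the 94 members had a positive value. Without 6xX2x replicate 1 the median was 0.54, against 0.04 over all probe sets tested. The 6xX2x mother was of accession Col-1, so that this contrast also compares accessions. Whether its count differs from the 14 higher members against 4xX2x was not tested.

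The 10 genes higher in 2xX4x than in 4xX2x also gave a call here, and the 2 contrasts share the 2xX4x arrays. AT1G19320 had 34.1 and 42.7 in 6xX2x (log2 change of 2xX4x against 6xX2x 4.04 ± 0.31, 16.5-fold, adjusted p = 6.3e-05), AT5G38960 had 41.3 and 11 (3.40 ± 0.48, adjusted p = 0.00262) and AT2G44250 had 1.7 and 14.1 (3.40 ± 0.45, adjusted p = 0.00192). AT2G34890 was at 3.7 and 4.4 in 6xX2x, beside 4.2 and 3.0 in 4xX2x, with a log2 change of 3.58 ± 0.54 (adjusted p = 0.00399). AT1G04645 had 81.9 and 83.0, AT2G21420 had 17.2 and 11.1, AT2G21130 had 58.4 and 113, AGL87 had 49.2 and 42.4, AT1G65240 had 41.4 and 34.3 and AT1G80530 had 205 and 256 in 6xX2x. Their log2 changes ranged from 0.96 for AT1G80530 to 2.60 for AT2G21420. No arrays of the 2 crosses overlapped, which held for all 21 called members and adds nothing to the calls.

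Called in this contrast and not in that with 4xX2x were 3 named genes. AT5G07260, which encodes a protein with a lipid-binding START domain, had 107 and 114 in 2xX4x, against 27.8 and 40.8 in 6xX2x (log2 change 1.52 ± 0.37, adjusted p = 0.0461). AT1G59930 had 169 and 184 in 2xX4x, against 82.1 and 77.9 in 6xX2x (log2 change 1.07 ± 0.22, adjusted p = 0.0195). AT5G50740, a gene with a heavy-metal-associated domain, had 44.9 and 73.4 in 2xX4x, against 4.1 and 17.9 in 6xX2x, on the probe set 248526_at (log2 change 1.93 ± 0.45, adjusted p = 0.0394). Its second probe set, 248527_at, gave 31.9 and 26.3 in 2xX4x, against 2.5 and 23.1 in 6xX2x, and did not pass (log2 change 1.07, adjusted p = 0.26). The call of AT5G07260 was lost in 13 of the 21 alternatives and that of AT5G50740 in 9, no offset and no filter among them for both. The count of called members was 10 without 6xX2x replicate 1, the array with the high 3′ to 5′ ratio, and leaving out the first or the second 2xX4x array gave 9 and 6. Of the 13 named calls, the 10 other than those of AT1G19320, AT5G38960 and AT2G44250 were lost without 2xX4x replicate 2 (adjusted p from 0.0717 to 0.297), 8 of them without 2xX4x replicate 1, 7 without 6xX2x replicate 1, 2 without 6xX2x replicate 2 and 1 each without 4xX2x replicate 1 or 2.

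**Figure D4:**
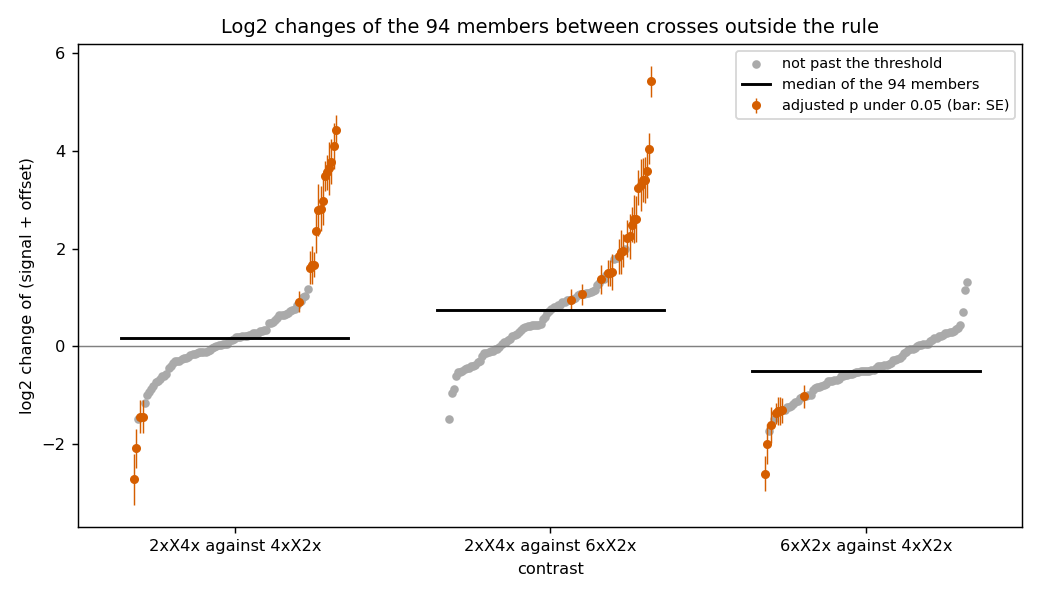
Log2 change (of signal plus an offset of 7.4) of the 94 members in the 3 contrasts between crosses that the rule did not use, sorted within each contrast, with the called members in orange (bars are SE) and the median of the 94 as a black line. In 2xX4x against 4xX2x 14 members are called higher and 4 lower, in 2xX4x against 6xX2x 21 are called higher, and in 6xX2x against 4xX2x 8 are called lower.

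The 2 degrees of maternal excess were compared directly. In 6xX2x 8 members were lower (8.51%, against 1.37% of all probe sets tested) and 0 were higher (against 1.6%) by limma, with 21 lower and 2 higher at an unadjusted p under 0.05. The median log2 change was -0.50, against 0.00 over all probe sets tested, and without 6xX2x replicate 1 it was -0.33, against -0.03. AT3G11180 had 58.8 and 62.6 in 6xX2x, against 253 and 276 in 4xX2x (log2 change -1.99 ± 0.40, adjusted p = 0.0264). AT5G07260 had 27.8 and 40.8 in 6xX2x, against 159.7 and 86.1 in 4xX2x (log2 change -1.60 ± 0.37, adjusted p = 0.0471). AT1G59930 had 82.1 and 77.9 in 6xX2x, against 214 and 221 in 4xX2x (log2 change -1.37 ± 0.22, adjusted p = 0.00776). The widest change was that of the unnamed 246814_at, with 52.4 and 57.7 in 6xX2x, against 389 and 352 in 4xX2x.

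The call of AT5G07260 was lost in 18 of the 21 alternatives, among them no offset, both other filters, each other scaling, array weights and the compared arrays alone (adjusted p from 0.0532 to 0.107). That of AT3G11180 was lost in 6, with no offset and array weights among them, and that of AT1G59930 in 3.

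The count of 8 was small, was 2 when the compared arrays were fitted alone, and rested on single arrays. Leaving out 6xX2x replicate 1 gave 1, as did leaving out 4xX2x replicate 1, and all 3 named calls were lost in each case (adjusted p from 0.0502 to 0.258 and from 0.0562 to 0.257). Without 6xX2x replicate 2 it was 5 and without 4xX2x replicate 2 it was 2, and each leave-out lost 2 of the 3 named calls. It was 3 without either 2xX4x replicate, which each lost 1 named call, and 5 without either 2xX2x replicate or 2xX6x replicate 2. Since the 6xX2x mother was of Col-1, ploidy and accession cannot be told apart in this contrast. The storage and oil list was also lower in 6xX2x than in 4xX2x, with sums of 213 to 216 against 998.5 to 2333 and all 3 genes past the threshold. In 2xX2x the sums were 213.8 to 215.5, so those of 6xX2x overlapped the balanced cross and those of 4xX2x were above it. The part of this in the members' values was not tested.

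Unfertilised msi1 siliques, which contain seed-like structures without a father, had low signals of most members. The msi1 signal was at most 0.5 of the lowest of the 6 arrays of 2xX4x, 4xX2x and 6xX2x for 28 members (29.8% of 94, against 0.757% of the 15982 probe sets kept by the filter). It was at least 2-fold above the highest of them for none of the 94 (against 1.18%). Since signals under 20 were raised to 20, a probe set under 40 on any of the 6 arrays could not meet the lower limit, and this background includes dim probe sets. It was under 20 for 48 members (against 1.99% of the 10992 probe sets with both 2xX2x arrays at 40 or more). With 1 array these are sizes without a test, and the msi1 siliques were dated from flowering, not from pollination.

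The 6 named genes given for their low msi1 signal relative to 2xX2x were under 20 there, except SYP111, so that no order is read among them. They were AT5G07260, with 1.0 in msi1 and 142 and 157 in 2xX2x, and AT2G42110, with 0.7 in msi1 and 84.6 and 100.5 in 2xX2x. AT2G34890 had 1.6 in msi1 and 133 and 77.0 in 2xX2x, and SUFE2, whose product activates sulfur transfer in iron-sulfur cluster assembly, had 1.7 in msi1 and 59.3 and 87.8 in 2xX2x. AT1G04645 had 13 in msi1 and 454 and 791 in 2xX2x, and SYP111 had 22.1 in msi1 and 698 and 709 in 2xX2x. AT2G42110, AT2G34890 and AT1G04645 were at most 0.5 of 2xX2x in both maternal excess crosses as well, AT5G07260 and SUFE2 in 6xX2x but not in 4xX2x, and SYP111 in every group.

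The 6 named genes with the highest msi1 signal relative to 2xX2x differed in how much of it they kept. AT1G03440 had 71.9 in msi1, against 88.6 and 80.9 in 2xX2x, and was above the 6 arrays of 2xX4x, 4xX2x and 6xX2x, which ranged from 28.1 to 55.4. MGL, the methionine gamma-lyase that breaks down methionine, had 161 in msi1, against 253 and 318 in 2xX2x. AT1G30690, a gene of the patellins, proteins of membrane traffic with a lipid-binding SEC14 domain, had 163 in msi1, 182 and 197 in 2xX4x and 76.5 and 113 in 6xX2x, against 319.8 and 298 in 2xX2x. AT3G20260 had 22.8, AT4G28230 19.0 and AT1G33940 27.5 in msi1, all near the floor of the rule, and of these AT4G28230 and AT1G33940 were among the 87 members at most 0.5 of 2xX2x. In none of these 6 genes did the msi1 signal reach the lowest 2xX2x array.

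The members were also read beside gene lists for the tissues of the silique, of which only genes with a named probe set of their own were measured. Of 28 genes of mitosis and cytokinesis 7 were measured, and SYP111 and HIK were members. The other 5 (CDKB2;2, AUR1, AUR2, AUR3 and ZCF125) did not meet the rule. AUR1, an Aurora kinase of the mitotic spindle, had 108 and 143 in 2xX4x, 87.3 and 51.5 in 2xX6x and 69 and 58.8 in fis1X2x, against 128 and 105 in 2xX2x. Like AUR1, CDKB2;2 and ZCF125 were below 2xX2x on every array of 2xX6x and fis1X2x. In AUR2 and AUR3 the 2xX6x arrays were not all below it. AUR2 had 44.7 and 20 in 2xX6x, against 37.6 and 55.3 in 2xX2x, and AUR3 had 49.2 and 17.8, against 45.6 and 48.9. The summed signal of the 7 genes was 568 to 666 in 2xX4x, 285 to 338 in 2xX6x, 216 to 267 in fis1X2x, 416 to 462 in 4xX2x, 374 to 382 in 6xX2x and 193 in msi1, against 1113 to 1127 in 2xX2x. Most of the 2xX2x sum was SYP111, which the rule chose. Without the 2 members the other 5 genes summed to 315 to 368 in 2xX4x, 184 to 268 in 2xX6x, 143 to 188 in fis1X2x, 220.1 to 237 in 4xX2x, 167 to 187 in 6xX2x and 147 in msi1, against 329.5 to 338 in 2xX2x. The 2xX4x sums then overlapped those of 2xX2x, and the other groups lay below. None of the 7 passed the test in any of the 3 contrasts (limma), with 0, 2 and 0 at an unadjusted p under 0.05, and their median log2 change was 0.50 in 2xX4x against 4xX2x, 0.43 in 2xX4x against 6xX2x and -0.15 in 6xX2x against 4xX2x.

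Of 28 embryo genes 4 were measured (LEC1, LEC2, PIN7 and MP), and of 14 endosperm genes 3 (AGL62, IKU1 and MPC). The embryo sum was 436 to 499.9 in 2xX4x, 227 to 289 in 2xX6x, 151 to 236 in fis1X2x, 327 to 407 in 4xX2x, 286 to 334 in 6xX2x and 294 in msi1, against 452 to 588 in 2xX2x. Without LEC1, which the rule chose, the other 3 genes summed to 212 to 223 in 2xX4x, 198 to 238 in 2xX6x, 147 to 182 in fis1X2x, 227 to 264 in 4xX2x, 242 to 262 in 6xX2x and 286 in msi1, against 178 to 197 in 2xX2x. Except in fis1X2x, which overlapped 2xX2x, these sums were above it. MP, a regulator of embryo and root patterning that other tissues express too, was at 228 in msi1, so that most of the msi1 sum was its own, while LEC1 and LEC2 were at 8.3 and 5.7. The endosperm sum was higher in the crosses that chose the members, with 291 to 304 in 2xX6x and 288 to 409 in fis1X2x, against 115 to 116 in 2xX2x, chiefly through MPC with 162 and 154 in 2xX6x and 269 and 158 in fis1X2x, against 14.8 and 5.0 in 2xX2x. In 2xX4x the endosperm sum was 118 to 127 and in 4xX2x 95.8 to 129. No embryo or endosperm gene passed the test in the 3 contrasts (limma), with 1, 3 and 0 embryo genes and no endosperm gene at an unadjusted p under 0.05. Lists of other silique tissues also differed between groups. The sum of the 3 measured green-tissue genes was 12935 in msi1, 9875 to 10292 in fis1X2x and 7375 to 11701 in 6xX2x, against 6225 to 7343 in 2xX2x, and it overlapped 2xX2x in 2xX4x, 2xX6x and 4xX2x. The sum of the 3 seed coat mucilage genes was 1209 to 1578 in fis1X2x, 892 to 3002 in 6xX2x, 2896 to 2979 in 2xX6x, 3016 to 3231 in 2xX4x and 2489 in msi1, against 3308 to 3741 in 2xX2x, and 4xX2x overlapped 2xX2x. The 892 was on 6xX2x replicate 1, the array with the high 3′ to 5′ ratio. There the mucilage gene SBT1.7 had 606, against 2806 on 6xX2x replicate 2. The 3 seed coat flavonoid genes summed to 1857 in msi1, against 1803 to 3114 in 2xX2x, and ALC, the measured gene of the fruit wall list, was at 571 in msi1, against 183 and 378 in 2xX2x. Their part in the members' values was not tested.

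The remaining named members were of moderate to low signal. AT2G34190, a nucleobase permease gene, had 88.5 and 128 in 2xX4x, 59.2 and 79.3 in 4xX2x, 83.3 and 73.0 in 6xX2x and 24.9 in msi1, against 164 and 144 in 2xX2x. AT5G13600, of the NPH3 family, had 67.4 and 91.1 in 2xX4x and 45.1 and 47.9 in 4xX2x, against 128 and 111 in 2xX2x. GH9B8, an endoglucanase-family gene, had 64.2 and 42.9 in 2xX4x and 18.5 in msi1, against 162 and 104 in 2xX2x. In these 3 genes every array outside 2xX2x lay below both 2xX2x arrays. ARPN, the plantacyanin gene of a secreted copper protein, had 18.2 and 11.1 in 2xX6x, 56 and 25.4 in fis1X2x and 12.6 and 62.7 in 4xX2x, against 116 and 155 in 2xX2x. Its replicates stood far apart in fis1X2x and 4xX2x. AT5G16250, a gene for a transmembrane protein, had 95.5 and 88.5 in 2xX4x, 149 and 204 in 4xX2x and 98.4 and 155 in 6xX2x, against 142 and 199 in 2xX2x. The maternal excess arrays overlapped those of 2xX2x, and the 2xX4x arrays lay below them.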

How the data were processed

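RNA of whole siliques was measured on 13 Affymetrix ATH1 arrays, 1 per sample. The deposited table gives intensities without a log. The authors computed them from the scans by MAS5 and scaled the arrays to each other (trimmed mean 100.0, from the values). Of 22810 probe sets 64 controls were left out. The study's own calls came from comparison values that the table does not hold and were not recomputed.

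Genes were named from the platform annotation (41 members) or, where it gave none, from a locus table of the study held only in part (5 members: SYP111, HIK, LEC1, CSLD5 and AT1G33940). The 2 sources gave the same locus for 1077 of 1089 shared probe sets. The probe sets of AT1G59930 (262902_x_at) and AT1G33940 (260118_s_at) end in _x_at and _s_at, and whether they measure a single gene was not tested. Symbols came from RefSeq (TAIR10.1). Coordinates, promoters and motifs were not analysed here.

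In the rule and in the classes against 2xX2x, signals under 20 were raised to 20. Tests used log2(signal + 7.4), where 7.4 is the 20th percentile of the table. Probe sets had to exceed the 40th percentile on 2 arrays or more, which left 15982. A model with 1 mean per cross was fitted to 12 arrays (limma version 3.58.1, R version 4.3.3, functions lmFit, contrasts.fit and eBayes with its trend option), with 6 residual degrees of freedom and 4.92 from the prior. Two-sided p-values were adjusted within a contrast by Benjamini-Hochberg across the 15982 probe sets and called under 0.05. The number of arrays limits the precision. The fit was tested on simulated data with known changes. The msi1 array was compared by size.

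Genes named in the text were, among named members, the 12 with the largest ratio in the rule, the 10 brightest in 2xX2x, up to 10 called in each direction of a contrast, the 6 highest and 6 lowest in msi1, and those of gene lists or keyword families or near the limit of the rule. TOPII, 3xHMG-box2, AT2G34190, AT5G13600, AT5G16250 and the unnamed probe sets fall outside this rule and were chosen after their values were seen. Members and lists were chosen with earlier results of these data known. Replicate numbers were not taken to pair the arrays. Alternatives were other offsets, filters and scalings, array weights, the compared arrays alone, the replicate block and leaving out arrays.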

Additional observations from a re-analysis of the deposited data

How the results depend on the processing

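The number of member probe sets was 122 with a floor of 10, 64 with a floor of 40 and 84 with arrays scaled to a common median, but 38 with a 3-fold in place of a 2-fold difference as the limit. Leaving out an array of the rule gave 97 to 200, the highest values being 200 without 2xX2x replicate 1 and 176 without 2xX2x replicate 2, since fewer arrays then have to meet the rule. Leave-outs, chosen after the data were seen, gave 17 to 23 members at most 0.5 of 2xX2x in 2xX4x, 30 to 36 in 4xX2x, 57 to 64 in 6xX2x and 88 or 89 in msi1, and a floor of 40 gave 7, 18, 37 and 59.

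The 18 members called in 2xX4x against 4xX2x ranged from 6 to 17 when 1 array was left out, and from 12 to 18 under the other alternatives. With no offset the 4 lower calls were all lost. The 21 called in 2xX4x against 6xX2x ranged from 6 to 25 and from 18 to 24. The 8 called in 6xX2x against 4xX2x ranged from 1 to 7 when 1 array was left out, and were 3 with no offset or with array weights, 4 with no filter or with quantile normalization, and 2 when the compared arrays were fitted alone. The cause of these changes was not tested. The 60th percentile filter left 77 members. With the replicate block the 3 counts were 15, 23 and 7, and the calls of AT1G80530 (adjusted p = 0.052) and AT5G12460 (0.0561) in 2xX4x against 4xX2x and of AT5G07260 in both of its contrasts (0.0503 and 0.0544) were lost. Same-numbered arrays of different crosses had correlations of their deviations from -0.237 to 0.412, over 0.1 in 6 of 15 pairs of crosses, so the numbers were not taken to pair all arrays. Among 2xX4x, 2xX6x and 2xX2x the correlations were 0.285, 0.342 and 0.412, and GAPDH 3′ to 5′ ratios were alike too, at 1.71 to 1.75 on their replicate 1 arrays and 2.06 to 2.11 on their replicate 2 arrays.

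No named call of the 28 in the 3 contrasts changed direction in 588 refits, and 465 of these kept the adjusted p under 0.05. It was lost in 88 refits that left out an array and in 35 others. Those of AT1G19320, AT5G38960 and AT2G44250, each in 2 contrasts, were kept throughout. The median standard error of a member's log2 change was 0.36, which the 2 arrays of each cross limit.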
